A study of Mus musculus with 4 samples.

Results

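The mammary epithelium is a bilayer of basal (myoepithelial) and luminal cells, and each of its lineages is kept by a small set of DNA-binding transcription factors. Genes for such factors were followed here, namely Elf5, Ehf, Foxa1, Gata3, Tbx3, Trp63, Sox10, Tfap2c, Sox9 and Runx1, which are 10 of the 27998 genes in the deposited matrix and were chosen by name as known lineage factors. The cells came from mammary glands of C57BL/B6 mice in 4 droplet libraries, one for each genotype (control or Zeb1 MSKO) at each age. Replicate 1 of each genotype was 8 weeks old and replicate 2 was 9 weeks old. MSKO is not expanded in the labels, and the sources used here do not give the part of Zeb1 removed, the cells it was removed from or the markers of the sort. No label states that each library is a separate animal, so the p-values reflect spread among 4 libraries and some of it may be technical.

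In textbook accounts, p63 (Trp63) maintains the basal layer, GATA3 and the forkhead pioneer factor FOXA1 act with the oestrogen receptor in hormone-sensing luminal cells, and the ETS factor ELF5 drives the alveolar, milk-producing fate from luminal progenitors. The SOX, RUNX, AP-2 and T-box factors act in more than one lineage. ZEB1 is a zinc-finger repressor of epithelial junction genes that is known for its role in mesenchymal cells.

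Cells were assigned to classes by raw counts of marker genes that include none of the 10 factors. After filters and removal of called doublets, 33605 cells were kept, of which 31024 fell into the basal gate (10942 cells), the luminal progenitor gate (11059) or the hormone-sensing luminal gate (9023), and 971 and 712 into a fibroblast and an endothelial gate. A gate is a range of a marker score, with its limit set after the scores were seen, and not a cell type. Within 0.25 of the limit lay 339, 197 and 747 cells for the 3 epithelial gates, and the median hormone-sensing gate cell scored 1.81 on its own markers against 0.356 on the luminal progenitor list and 0.131 on the basal list. Kept cells numbered 6970 to 8934 per library, and the median barcode held 6376 UMIs (unique molecular identifiers, each counting 1 captured transcript) in the Zeb1 MSKO library at 8 weeks against 9403 to 10529.5 in the other 3. Basal gate cells made up 52.9% of kept cells in that library against 19.9% to 29.4% in the others. Its median was 5405 UMIs in the basal gate (7666 to 7941 elsewhere), 7561.5 in the progenitor gate (7481 to 8142) and 15248 in the hormone-sensing gate (14002 to 17093). Fibroblasts and endothelial cells came mostly from the 8 week libraries (388 and 526 fibroblasts against 25 and 32), and hair follicle keratinocyte gate cells numbered 200 in the Zeb1 MSKO library at 8 weeks and 2, 0 and 0 elsewhere. Of 33054 distinct barcode sequences, 543 occurred in more than 1 library. Zeb1 itself stood at 0.110 to 1.14 CPM (UMIs scaled to an equal total per gate and library) in every epithelial gate and library. In the fibroblast gate it stood at 61.5 and 85.1 CPM in control and at 74.9 and 53.6 CPM in Zeb1 MSKO libraries at 8 and 9 weeks, which overlapped. In the progenitor gate it was higher in Zeb1 MSKO, at 0.699 and 1.14 CPM (10 and 32 UMIs) against 0.318 and 0.128 CPM (11 and 3 UMIs) in control. The counts thus show no loss of Zeb1 in the libraries labelled Zeb1 MSKO. A 3′ count that lies outside a deleted part would not show its loss.

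Where 4 values stand in a series they belong to the control and the Zeb1 MSKO library at 8 weeks and then the control and the Zeb1 MSKO library at 9 weeks. Class levels are given as a description with no test, since these genes are known for their lineage patterns. All 3 epithelial gates were apart for 4 of the 10 factors (Ehf, Foxa1, Sox10 and Tfap2c), as the plot of levels by gate and library shows. The share of all genes apart in all 3 gates at once was not computed, so this count has no baseline. For single pairs of gates that share was 39.9% to 51.7% of genes.

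**Figure D1:**
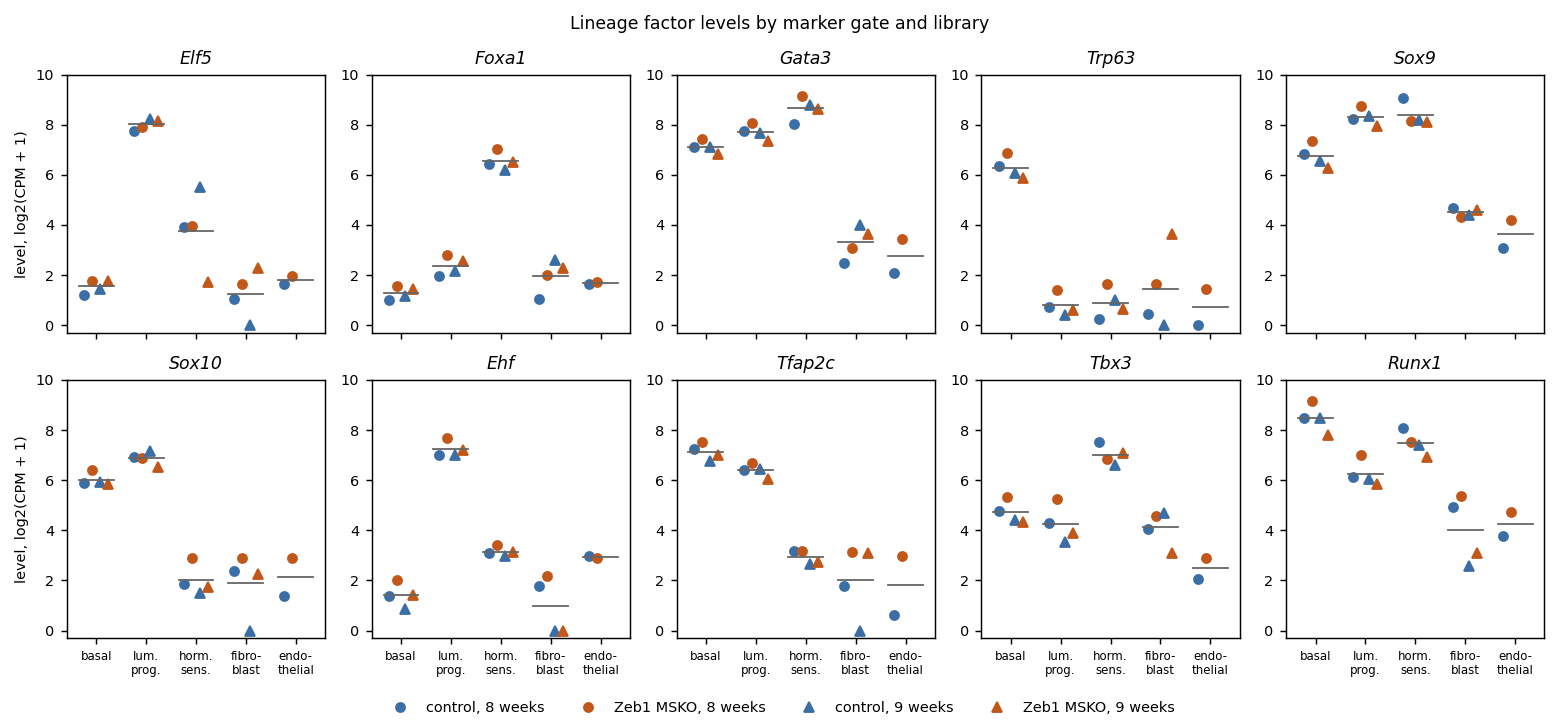
Level of each factor on the y axis, as log2(CPM + 1), in the basal, luminal progenitor (lum. prog.), hormone-sensing luminal (horm. sens.), fibroblast and endothelial gates on the x axis; each point is 1 library with at least 10 cells in the gate, colours give the genotype, shapes the age and grey lines the mean over libraries. Elf5 and Ehf peak in the luminal progenitor gate, Foxa1 and Tbx3 in the hormone-sensing gate and Trp63 in the basal gate, while Elf5 in the hormone-sensing gate spreads from 2.31 to 45.3 CPM.

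Elf5 (ENSMUSG00000027186, chr2:103411688-103450989, plus strand, mm10) had the widest gap of the 10 factors between luminal progenitor and basal cells. Its level in the luminal progenitor gate was 216, 240, 299 and 283 CPM, and in the basal gate 1.28, 2.43, 1.76 and 2.43 CPM. The 4 progenitor values lay far above all basal values, with means of 259 ± 38.2 and 1.98 ± 0.562 CPM (SD, n = 4), a 131-fold difference. The basal level was near the 2.52 CPM mean of the endothelial gate at 8 weeks, a class that should lack Elf5. Elf5 in the hormone-sensing gate, at 14.0, 14.4, 45.3 and 2.31 CPM, did not overlap with the progenitor gate but spread 19.6-fold among its own libraries, and its 2.31 CPM was within the basal range.

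Ehf (ENSMUSG00000012350, chr2:103263433-103303278, minus strand) encodes another epithelial ETS factor and lies beside Elf5, with 108.409 kb between the 2 genes. Its pattern was the same in order: 128, 204, 127 and 147 CPM in luminal progenitors, 7.54, 9.58, 6.83 and 7.76 CPM in hormone-sensing cells, and 1.62, 3.05, 0.825 and 1.69 CPM in basal cells. None of the 3 gates overlapped for Ehf, and progenitors stood 84.6-fold above basal and 19.1-fold above hormone-sensing cells by their means. The hormone-sensing values overlapped those of the endothelial gate (6.95 and 6.37 CPM at 8 weeks). Unlike Elf5, Ehf varied only 1.40-fold among the hormone-sensing libraries. Across the 18 gate and library sums of the 5 gates, log2(CPM + 1) of the 2 genes had a Pearson r of 0.922, a description over sums that share libraries.

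Foxa1 (ENSMUSG00000035451, chr12:57540628-57546916, minus strand), the pioneer factor of the oestrogen receptor, was the reverse of Elf5. Hormone-sensing cells held 85.6, 129, 71.5 and 89.4 CPM, luminal progenitors 2.86, 6.01, 3.55 and 4.86 CPM and basal cells 1.01, 1.99, 1.27 and 1.73 CPM. The epithelial gates did not overlap, and hormone-sensing cells stood 21.7-fold above progenitors and 62.5-fold above basal cells by their means. The progenitor values overlapped those of the fibroblast gate (1.05 to 5.01 CPM). The basal values lay under the endothelial gate (2.14 and 2.32 CPM at 8 weeks). The gap between progenitors and basal cells thus lies at levels also found outside the epithelium.

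RefSeq promoter windows (GRCm38.p6, the assembly of mm10), which run from 250 bases before to 50 bases after a transcript start, were at hand for 4 of the 10 factors. Those of Elf5 and Foxa1 are shown because the 2 genes mark opposite luminal lineages, and 1 of Runx1 because it carries matches to the RUNX motif itself. Short motifs, 8 in all, were searched on both strands: ETS GGAAGT, forkhead TGTTTAC, the GATA factor motif AGATAA, SOX ACAAAG, AP-2 GCCNNNGGC, RUNX TGTGGT, T-box GGTGTG and STAT TTCNNNGAA. Capitals mark every match.
Elf5, first start, chr2:103411848-103412147, plus strand: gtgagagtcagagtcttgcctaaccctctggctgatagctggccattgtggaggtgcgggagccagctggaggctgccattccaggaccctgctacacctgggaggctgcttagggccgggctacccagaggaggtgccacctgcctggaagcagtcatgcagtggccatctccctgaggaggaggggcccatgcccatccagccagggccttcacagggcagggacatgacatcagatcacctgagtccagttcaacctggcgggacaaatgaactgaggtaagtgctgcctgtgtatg
Elf5, second start, chr2:103423818-103424117, plus strand: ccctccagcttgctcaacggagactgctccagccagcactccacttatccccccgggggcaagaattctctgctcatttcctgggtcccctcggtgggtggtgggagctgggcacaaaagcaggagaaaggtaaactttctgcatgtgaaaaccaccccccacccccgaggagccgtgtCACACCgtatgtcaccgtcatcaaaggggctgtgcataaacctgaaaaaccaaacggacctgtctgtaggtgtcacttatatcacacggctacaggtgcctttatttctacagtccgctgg
Foxa1, chr12:57546062-57546361, minus strand: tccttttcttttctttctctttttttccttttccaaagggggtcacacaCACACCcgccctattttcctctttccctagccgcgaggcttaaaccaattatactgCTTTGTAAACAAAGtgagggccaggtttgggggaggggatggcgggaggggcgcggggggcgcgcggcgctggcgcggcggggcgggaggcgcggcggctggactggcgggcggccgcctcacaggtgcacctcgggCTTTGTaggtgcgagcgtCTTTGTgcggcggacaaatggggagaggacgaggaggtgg
Runx1, distal start, chr16:92826025-92826324, minus strand: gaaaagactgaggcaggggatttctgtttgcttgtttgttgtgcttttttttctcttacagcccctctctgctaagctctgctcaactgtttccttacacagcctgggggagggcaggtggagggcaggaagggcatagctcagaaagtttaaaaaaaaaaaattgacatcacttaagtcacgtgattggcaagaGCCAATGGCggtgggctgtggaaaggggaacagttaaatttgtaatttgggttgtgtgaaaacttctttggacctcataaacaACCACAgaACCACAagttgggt

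The Foxa1 window held 1 match to the forkhead motif, which 3.65% of all 32851 windows hold, 4 to the SOX motif (18.7% of windows hold at least 1) and 1 to the T-box motif (19.0%). Its forkhead match and 2 of its SOX matches overlap in the run CTTTGTAAACAAAG. The first Elf5 window held none of the 8 motifs and the second only 1 T-box match. The distal Runx1 window held 2 RUNX matches in the bases after the start (16.8% of windows hold at least 1) and 1 AP-2 match (16.6%), while the window at the other Runx1 start held none. The Gata3 window held 3 AP-2 matches and 1 T-box match. A match describes these letters and does not show binding, and 3′ counts do not tell which start a transcript used.

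Gata3 (ENSMUSG00000015619, chr2:9857078-9890034, minus strand), a zinc-finger factor needed for luminal cells, was present in all 3 epithelial gates. It stood at 262, 568, 438 and 399 CPM in hormone-sensing cells, at 213, 270, 204 and 161 CPM in luminal progenitors and at 136, 173, 135 and 112 CPM in basal cells. In each of the 4 libraries the order was hormone-sensing, progenitor, basal, but neighbouring gates overlapped across libraries. Only the hormone-sensing and basal values were apart, by 2.99-fold in their means. Tbx3 (ENSMUSG00000018604, chr5:119670669-119684724, plus strand), a T-box repressor needed for mammary bud formation, stood at 181, 114, 96.3 and 134 CPM in hormone-sensing cells, 4.99-fold above the basal mean of 26.3 ± 9.14 CPM (SD, n = 4). Basal and progenitor values of Tbx3 overlapped (19.0 to 39.1 against 10.6 to 36.8 CPM), as did fibroblast values (7.66 to 25.0 CPM).

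Trp63 (ENSMUSG00000022510, chr16:25683763-25892102, plus strand), the p63 gene, was at 79.8, 115, 66.4 and 58.0 CPM in the basal gate. In the luminal progenitor gate it was at 0.665, 1.68, 0.342 and 0.536 CPM and in the hormone-sensing gate at 0.204, 2.11, 1.01 and 0.555 CPM. The basal mean of 79.8 ± 25.1 CPM (SD, n = 4) was 99.1-fold and 82.3-fold above those of the 2 luminal gates. Both luminal gates had their highest Trp63 in the Zeb1 MSKO library at 8 weeks, where the 10 basal gate markers together were also highest (461 against 118 to 211 CPM in progenitors, 389 against 80.9 to 143 CPM in hormone-sensing cells). The part of those markers' RNA in the luminal Trp63 values was not tested.

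Sox10 and Tfap2c were shared by basal and progenitor cells. Sox10 (ENSMUSG00000033006, chr15:79154908-79165240, minus strand), a SOX factor also known from glia and neural crest, was at 119, 117, 142 and 90.3 CPM in luminal progenitors, 58.0, 83.7, 60.6 and 56.4 CPM in basal cells and 2.65, 6.45, 1.84 and 2.31 CPM in hormone-sensing cells. Tfap2c (ENSMUSG00000028640, chr2:172549593-172558622, plus strand), which encodes AP-2 gamma, had the opposite order of the first 2 gates: 152, 181, 108 and 128 CPM in basal cells, 83.1, 103, 85.8 and 65.7 CPM in progenitors and 8.00, 8.02, 5.38 and 5.70 CPM in hormone-sensing cells. All 3 gates were apart for both genes. Hormone-sensing cells were lower than basal cells by 19.5-fold for Sox10 and 21.0-fold for Tfap2c in their means, and both genes there overlapped the endothelial gate at 8 weeks (1.60 and 6.37 CPM for Sox10, 0.535 and 6.95 CPM for Tfap2c).

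Sox9 and Runx1 were, like Gata3, present in all 3 epithelial gates. Sox9 (ENSMUSG00000000567, chr11:112782224-112787760, plus strand), a SOX factor of progenitor cells in many epithelia, was at 296, 429, 327 and 246 CPM in luminal progenitors and at 527, 283, 294 and 277 CPM in hormone-sensing cells. Those ranges overlapped, and both lay above the basal gate, at 114, 163, 93.4 and 77.2 CPM. Runx1 (ENSMUSG00000022952, chr16:92601466-92826149, minus strand), which encodes a DNA-binding subunit of core-binding factor, was at 353, 578, 359 and 224 CPM in basal, 273, 183, 166 and 121 CPM in hormone-sensing and 69.3, 127, 64.5 and 56.6 CPM in progenitor cells. Basal Runx1 was above progenitor Runx1 without overlap, and in each library the order was basal, hormone-sensing, progenitor.

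Between the basal and luminal progenitor gates, 8 of the 10 factors had values that did not overlap, 3 higher in basal cells (Trp63, Tfap2c and Runx1) and 5 lower. Of 16053 genes with at least 10 UMIs in these gates, 39.9% did not overlap, 21.2% higher in basal cells and 18.8% lower. Between basal and hormone-sensing gates the count was again 8 of 10, 3 higher in basal cells (Trp63, Sox10 and Tfap2c) and 5 lower, against 51.7% of genes (27.1% higher and 24.6% lower). Between luminal progenitor and hormone-sensing gates it was 6 of 10, 4 higher in progenitors (Elf5, Ehf, Sox10 and Tfap2c) and 2 lower (Foxa1 and Tbx3), against 40.9% of genes (20.5% higher and 20.3% lower).

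Shares of cells with a UMI depend on depth, and hormone-sensing gate cells were the deepest, with medians of 14002 to 17093 UMIs against 5405 to 8142 in the other epithelial gates. Each cell was therefore thinned to 2000 UMIs. Elf5 was then seen in 32.8%, 37.0%, 43.2% and 41.9% of progenitors, and Foxa1 in 13.1% to 22.4% of hormone-sensing cells. Trp63 was seen in 13.1%, 17.2%, 11.4% and 10.1% of basal cells, although basal identity was set by other markers in all of them. In endothelial gate cells at 8 weeks (medians of 5318 and 4310 UMIs), the thinned shares were 0.534% and 0.645% for Elf5, 0.438% and 0.446% for Foxa1, and 0.00% and 0.321% for Trp63, for which no UMI in 337 control cells allows a share of cells with a UMI of up to 0.890%. Unthinned, 74.1% to 84.4% of progenitors held Elf5, 59.8% to 77.0% of hormone-sensing cells Foxa1 and 33.9% to 35.7% of basal cells Trp63.

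The genes most like each factor over the 18 sums, among 9820 genes that are neither gate markers nor factors, were found by Pearson r of log2(CPM + 1). They were Muc1, Ckmt1 and Ceacam1 for Elf5 (r of 0.963 to 0.955), Pde9a, Cytip and Btn1a1 for Ehf (0.967 to 0.939), and Fam134c, Nek7 and Ndufa7 for Foxa1 (0.980 to 0.970). For Gata3 they were St6galnac2, Kcnk1 and Lsr (0.973 to 0.965), for Tbx3 Prdx6, Slc25a17 and Qtrt1 (0.948 to 0.900), and for Trp63 Moxd1, Vsnl1 and the hemidesmosome collagen gene Col17a1 (0.987 to 0.982). Sox10 was most like Ntng1, Lcn2 and Cadm1 (0.972 to 0.958), Tfap2c like Slc25a13, Plekhb1 and Mia (0.976 to 0.955), Sox9 like Fam110c, Rbm47 and Hsdl2 (0.968 to 0.961), and Runx1 like the desmosome gene Dsp, Csad and S100a14 (0.972 to 0.935). Among the factors themselves, Gata3 with Sox9 (r = 0.951) and Sox10 with Tfap2c (r = 0.950) were the closest pairs. The sums share 4 libraries, so these r describe the gates and carry no test.

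The effect of the Zeb1 MSKO genotype was compared within each gate, with the library as the replicate (n = 2 per genotype). No factor passed the test in any gate: edgeR's quasi-likelihood test with Benjamini-Hochberg adjustment called 0 of 10 factors and 0 of all genes (0.0%) in each of the basal (12900 genes tested), luminal progenitor (12766) and hormone-sensing (13023) gates. Without adjustment 61, 183 and 462 genes were under 0.05 in the same order (0.473%, 1.43% and 3.55%), and none was a factor. DESeq2 called 2, 7 and 33 genes, again none of them a factor. Without 1 library the counts reached 13 in basal cells (Zeb1 MSKO at 9 weeks left out), 8 in progenitors (control at 9 weeks) and 1 in hormone-sensing cells (control at 8 weeks), with no factor among them. The smallest exact permutation p that 2 against 2 libraries allow is 0.333.

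In all 3 gates Foxa1 stood higher in each Zeb1 MSKO library than in either control, as Ehf did in both luminal gates, without passing the test. The gates share the same libraries, so these repeats are not independent, and the share of genes repeated over gates was not computed. Foxa1 was also low in the basal (1.01 to 1.99 CPM) and progenitor (2.86 to 6.01 CPM) gates. Foxa1 in the hormone-sensing gate, where it is abundant, averaged 77.3 ± 8.18 library-normalised CPM in the controls and 110.4 ± 25.4 with the Zeb1 MSKO genotype (SD, n = 2), an edgeR log2 fold change of 0.51 with a standard error of 0.25. Its unadjusted p in edgeR was 0.0887 and its adjusted p 1.0. Ehf in the progenitor gate averaged 130.2 ± 1.59 and 172 ± 33.7 library-normalised CPM (SD, n = 2), with a log2 fold change of 0.40 and a standard error of 0.27 in edgeR. Sox10 in the progenitor gate and Sox9 in the hormone-sensing gate were lower in both Zeb1 MSKO libraries, at log2 fold changes of -0.38 (SE 0.27) and -0.50 (SE 0.32). Elf5 and Foxa1 in the basal gate were also higher in both Zeb1 MSKO libraries, at levels of 1.01 to 2.43 CPM. In all, 2 of 10 factors did not overlap between genotypes in basal, 3 of 10 in progenitor and 3 of 10 in hormone-sensing cells, against 14.9%, 20.8% and 28.2% of the genes tested. Of these factors, 2 were higher in Zeb1 MSKO in each gate (8.09%, 10.4% and 14.6% of genes were), and 0, 1 and 1 were lower (6.84%, 10.3% and 13.6%).

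The 2 ages are given apart, with 1 library per genotype each and no test. In the basal gate, all 10 factors were higher in the Zeb1 MSKO than in the control library at 8 weeks (median log2 ratio 0.51) and 4 of 10 at 9 weeks (median -0.14). In the progenitor gate the counts were 9 and 4 (medians 0.51 and -0.14), and in the hormone-sensing gate 7 and 5 (medians 0.23 and 0.05). The median over all genes tested was at most 0.0149 in size at each age and gate. In basal cells Runx1 moved in opposite directions, at 353 and 578 CPM in control and Zeb1 MSKO cells at 8 weeks and 359 and 224 CPM at 9 weeks. The 2 controls were nearly equal and the Zeb1 MSKO libraries lay on either side of them.

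**Figure D2:**
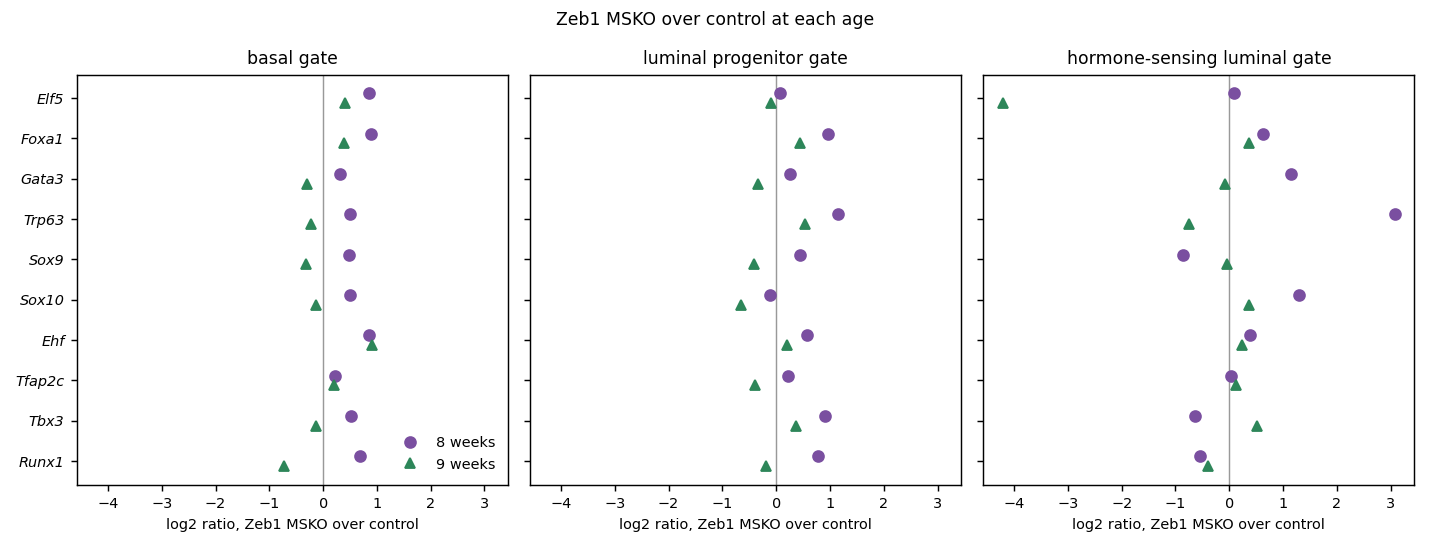
Log2 ratio of the Zeb1 MSKO over the control library of the same age on the x axis (edgeR log2 CPM with a prior count of 2) for each factor on the y axis, in the 3 epithelial gates; circles are 8 weeks and triangles 9 weeks, with 1 library per genotype and age. In the basal gate every circle is right of 0 and 6 of 10 triangles are left of it; Elf5 at 9 weeks in the hormone-sensing gate is at -4.21.

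The Zeb1 MSKO library at 8 weeks was the highest of the 4 libraries for 10 of 10 factors in the basal gate, 8 of 10 in the progenitor gate and 6 of 10 in the hormone-sensing gate. Of all genes tested it was highest for 30.1%, 25.8% and 24.6%. In that library the basal gate also had the fewest UMIs per cell (median 5405 against 7666 to 7941), the lowest sum of the 10 basal markers (17236 against 23727 to 27074 CPM), and the highest sums of the 8 luminal progenitor markers (775 against 502 to 543 CPM) and of the 6 hair follicle markers (37.6 against 14.1 to 19.5 CPM). No basal or progenitor marker was at 0 in this gate of any library. The part of these differences in the factors' levels was not tested. With 1 library per genotype and age, age cannot be told apart from preparation.

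Whether the genotype effect differs between gates was tested as an interaction in edgeR with the library as a block. It called 0 genes (0.0%) for each of the 3 pairs of gates (13836, 14080 and 13965 genes tested), with 475, 514 and 663 genes (3.43%, 3.65% and 4.75%) under an unadjusted 0.05 and 4, 14 and 30 called by DESeq2. Without 1 library, 0 to 57, 20 to 447 and 0 to 73 genes were called, the most without the Zeb1 MSKO library of 9 weeks for the first 2 pairs and of 8 weeks for the third. Elf5 had the largest difference among the factors, 2.76 (SE 0.80) on the log2 scale between the basal and the hormone-sensing gate, with an unadjusted p of 0.00681 and an adjusted p of 1.0 in edgeR. The call depended on the libraries, in fits with 1 residual degree of freedom each: the adjusted edgeR p for Elf5 was 0.00248 without the control at 8 weeks, 0.682 without the control at 9 weeks, 9.85e-13 without the Zeb1 MSKO library of 8 weeks and 0.0233 without the one of 9 weeks. It was 1.62e-05 with no filter on low counts and 0.520 in DESeq2. Elf5 also differed by 2.05 (SE 0.87) between progenitor and hormone-sensing gates, adjusted p 1.0 in edgeR and 0.00120 once the 8 week Zeb1 MSKO library was left out, against 0.945 to 1.0 when any other library was. Sox9 was called once, between basal and hormone-sensing gates without the Zeb1 MSKO library at 9 weeks (1.15, adjusted p = 0.0386 in edgeR).

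Elf5 in the hormone-sensing gate set apart the 2 libraries of 9 weeks. There the control held Elf5 in 32.2% of 2257 cells (Wilson 95% interval 30.3% to 34.2%) and the Zeb1 MSKO library in 3.74% of 3129 cells (3.13% to 4.46%). At 8 weeks the shares were 13.5% (12.2% to 14.9%) and 14.8% (12.9% to 17.0%), with intervals that overlapped. Thinned to 2000 UMIs, the shares were 2.56%, 2.71%, 7.78% and 0.445%, the last of these below the endothelial shares given above. The intervals cover counting error only. The edgeR log2 fold change of Zeb1 MSKO against control was -1.85 (SE 0.97), with an adjusted p of 1.0. It ranged from -3.62 without the Zeb1 MSKO library at 8 weeks to -0.73 without the control at 9 weeks, adjusted edgeR p 0.333 and 1.0.

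**Figure D3:**
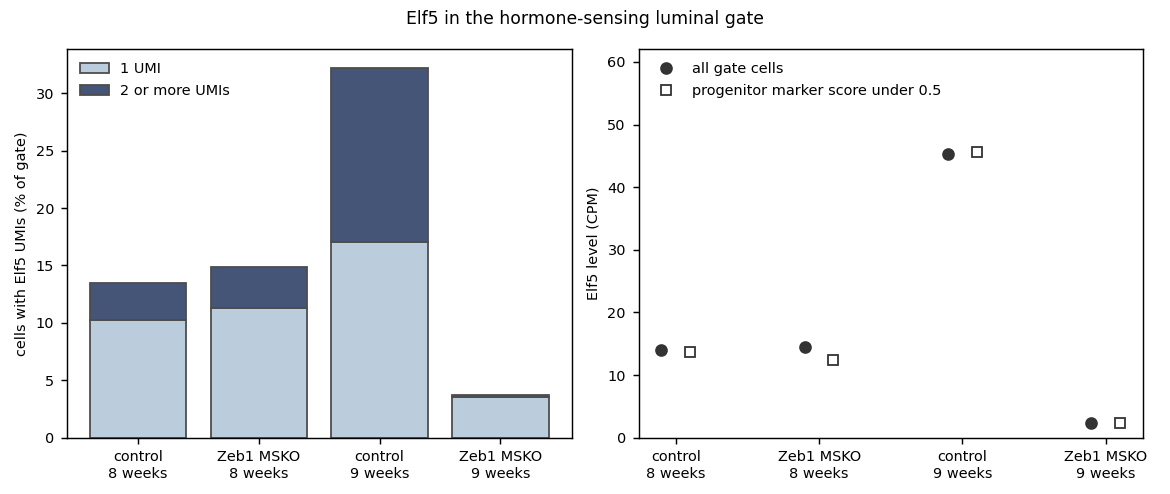
Left, share of hormone-sensing gate cells (y axis, percent) with 1 Elf5 UMI (light) or 2 or more (dark) in each library (x axis); right, Elf5 level (y axis, CPM) in all gate cells (filled circles) and in cells with a luminal progenitor marker score under 0.5 (open squares). The control at 9 weeks is highest on both axes and the Zeb1 MSKO library at 9 weeks lowest, and each open square lies close to its circle.

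Hormone-sensing cells with 2 or more Elf5 UMIs numbered 82, 39, 342 and 6, which is 3.25%, 3.50%, 15.2% and 0.192% of the gate. In the control at 9 weeks a single cell held up to 25 Elf5 UMIs, and such cells carried 74.8% of the gate's Elf5 UMIs. Their median luminal progenitor marker score was 0.389, 0.522, 0.35 and 0.283, close to 0.368, 0.445, 0.338 and 0.329 in gate cells without Elf5. The progenitor gate had medians of 3.16 to 3.26. That gap was set by the gating, since a cell that also reached the progenitor limit of 1.5 was left out of the hormone-sensing gate. With cells of a progenitor score of 0.5 or more left out, Elf5 stood at 13.6, 12.4, 45.6 and 2.28 CPM. Of the progenitor gate markers, Aldh1a3 was at 2.52 CPM in the 342 cells of the control at 9 weeks. It was at 2.93 CPM in gate cells without Elf5 and at 381 CPM in the progenitor gate of that library, which it helps define. Kit was at 0.540 CPM (3 UMIs) in the 342 cells against 1.31 CPM without Elf5, Csn3 at 48.2 against 47.0 CPM and Wfdc18 at 41.2 against 36.9 CPM. At 8 weeks Wfdc18 was at 69.4 against 65.6 CPM in the control and 252 against 130 CPM in Zeb1 MSKO. Foxa1 and Elf5 UMIs were found together in 228, 131, 446 and 82 hormone-sensing cells, and at 2000 UMIs per cell the share with both was 1.06, 0.94, 1.03 and 0.91 times the product of the 2 shares.

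Genes that differed between the Elf5 cells and gate cells without Elf5, in all 3 libraries with at least 30 such cells, were looked for after these values were seen. Crym, a thyroid hormone-binding protein gene, was higher in the cells with 2 or more Elf5 UMIs by 1.08, 0.71 and 1.29 on the log2 scale (control and Zeb1 MSKO at 8 weeks, control at 9 weeks). Upk3a, a uroplakin gene, was lower by log2 differences of -3.23, -1.63 and -2.83, but the remaining library, Zeb1 MSKO at 9 weeks, had 545 CPM in its 6 such cells against 39.5 CPM in those without Elf5. Tinagl1 (0.80, 0.62 and 0.74) and the thymosin gene Tmsb4x (0.96, 0.41 and 0.94) were higher in each. Cells sorted on 1 gene differ in depth as well: the median was 15231.5, 17358 and 16088.5 UMIs in the Elf5 cells against 13737.5, 15071.5 and 14775 in those without.

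Subsets of a gate were compared within each library, with no test. Luminal progenitors with a UMI of Lalba, the alpha-lactalbumin gene of alveolar cells, numbered 209, 68, 529 and 469. Finding a UMI depends on the depth of a cell, and the part of depth in this split was not tested. Runx1 was higher in them than in the other progenitors in each library, at 88.7, 181, 70.5 and 67.4 CPM against 68.3, 124, 62.6 and 54.5 CPM, and so were Elf5 and Gata3, by medians of 0.06 and 0.08 on the log2 scale. Tbx3 was lower in each, at 16.5, 21.7, 6.48 and 11.8 CPM against 18.6, 37.5, 11.9 and 14.2 CPM, and so was Ehf. That made 3 of 10 factors higher in all 4 libraries, against 5.52% of genes, and 2 of 10 lower, against 20.7%, with the 2 sets of 4 values overlapping for each (0.468% of genes were higher and 3.62% lower without overlap). Progenitors with a UMI of Kit, a receptor tyrosine kinase of the progenitor list, had more Tbx3 in each library, by 0.08 to 0.72 on the log2 scale. Gata3, Sox10 and Ehf were higher there in all 4 libraries too, 4 of 10 factors against 15.5% of genes, and no factor was lower in all 4 (6.05% of genes). No factor was without overlap (0.544% higher and 0.131% lower). Kit-positive cells were also deeper, with medians of 9247, 8385, 9166 and 8784 UMIs against 7473, 6796, 6925 and 6701, and the part of depth was not tested. In hormone-sensing cells with a UMI of Pgr, the progesterone receptor gene, Sox9 and Trp63 were higher in all 4 libraries, 2 of 10 factors against 9.38% of genes, and none was lower (5.27%) or without overlap (0.613% higher, 0.202% lower). Trp63 there rested on 1 to 7 UMIs in the cells without Pgr, so no change can be read from it, and the cells with Pgr were deeper (medians of 14324 to 17923 against 11482 to 15001 UMIs).

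Cycling cells, with UMIs of at least 3 of 6 mitotic genes, were few in the basal gate (40, 13, 17 and 69 cells) and deeper than the rest, with medians of 13712 to 20816 against 5400.5 to 7918 UMIs. Runx1 was lower in them in each library, at 209, 139, 141 and 88.9 CPM against 360, 581, 363 and 232 CPM, and the 2 sets did not overlap. Gata3 was lower as well, at 98.6, 64.2, 84.4 and 80.4 CPM against 137, 174, 136 and 114 CPM. Foxa1 had 0 UMIs in the cycling basal cells of each library, where a count of 0 allows up to 2.54 to 16.1 CPM, so a difference from the 1.06 to 2.01 CPM of the other basal cells was not detectable at this depth. In all, 5 of 10 factors were lower in each library (20.5% of genes were) and 3 of 10, Foxa1 included, without overlap (13.0%). None was higher in each library (19.7% of genes) or above without overlap (11.6%). Trp63 was not among them, at 66.7, 171, 59.1 and 83.8 CPM against 80.4, 115, 66.6 and 56.5 CPM. In the progenitor gate Elf5, Sox9 and Runx1 were lower in cycling cells of each library by medians of -0.43, -0.48 and -0.55 on the log2 scale. With Foxa1 that made 4 of 10 factors (17.5% of genes), while Tbx3 alone was higher in all 4 (19.3%) and none without overlap (9.69%). The 1 factor lower without overlap (6.98%) was Foxa1, at 0 to 2.41 CPM in cycling progenitors against 3.07 to 6.11 CPM in the others. These are low levels, and a library held as few as 12 cycling progenitors. Only 6 to 51 hormone-sensing cells per library were cycling. There 4 of 10 factors were lower in all 4 libraries (24.4%), 1 of them without overlap (16.7%), and none was higher in all 4 (10.2%) or without overlap (5.6%). The one without overlap was Trp63, with 0 UMIs in the cycling cells of each library, where a difference was not detectable at this depth.

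**Figure D4:**
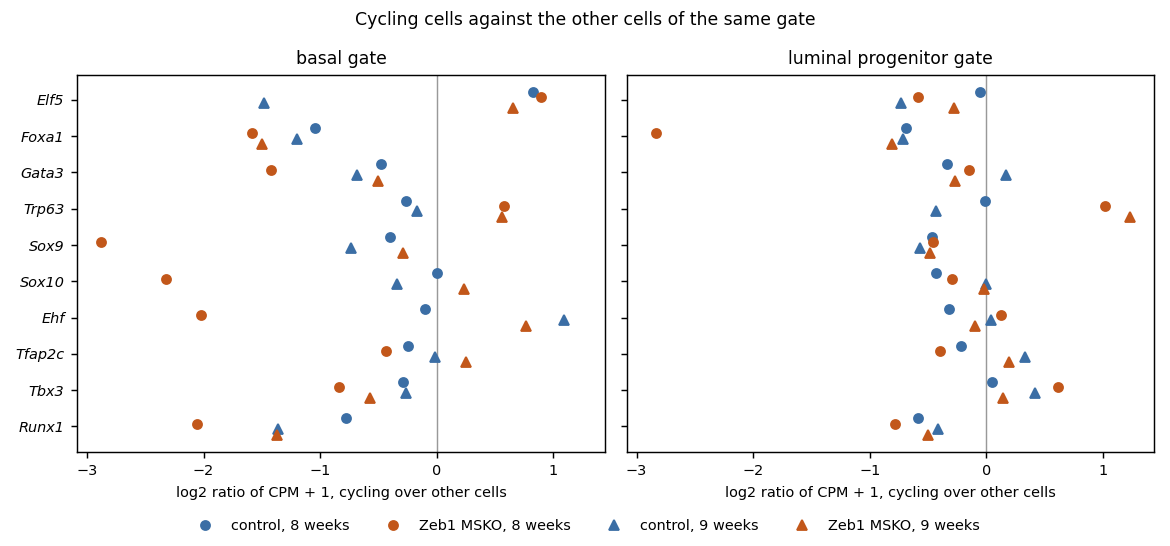
Log2 ratio of CPM + 1 in cycling over other cells of the same gate and library (x axis) for each factor (y axis), in the basal and luminal progenitor gates; colours give the genotype and shapes the age. All 4 Runx1 points are left of 0 in both gates, from -2.05 to -0.78 in basal and from -0.78 to -0.41 in progenitor cells.

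Partners and targets of the factors, from lists chosen with earlier results of these data known, gave no call in any gate in edgeR (0 genes each; the share of all genes called was 0.0%). In the basal gate the median log2 fold change was 0.11 for 37 tested other mammary transcription factors, 0.01 for 16 cofactors, -0.06 for 20 p63 targets, 0.20 for 9 hormone receptor and Foxa1 linked genes, 0.59 for 8 Elf5 and alveolar linked genes, 0.09 for 18 ETS genes and 0.38 for 8 SOX genes, beside 0.03 over all genes tested. In the progenitor gate the medians of the same lists were 0.21, 0.12, 0.50, 0.04, 0.38, 0.06 and 0.43, beside -0.01 over all genes. In the hormone-sensing gate they were -0.02, 0.05, 0.61, 0.05, 0.77, -0.10 and 0.45, beside 0.02. Some listed genes are gate markers too, among them Krt5 and Krt14 (p63 targets), Cited1 and Wnt4 (hormone receptor list) and Kit and Csn3 (Elf5 list). Their part in these medians was not tested. The genes of these lists under an unadjusted edgeR p of 0.05 were Msx2 in basal cells, then Klf4, Lamb3, Bmp7, Csn2 and Sox6 in progenitors and Krt5, Itga6 and Myb in hormone-sensing cells, each with a positive fold change. Csn2, the beta-casein gene, had a log2 fold change of 3.63 (SE 1.45) and Krt5, a basal keratin and gate marker, one of 1.52 (SE 0.53), both with an adjusted edgeR p of 1.0. All 10 basal markers had positive fold changes in both luminal gates (medians 1.05 and 1.21), as did all 8 fibroblast markers (1.26 and 1.52). Their sums differed mostly at 8 weeks. From control to Zeb1 MSKO, the basal markers stood at 118 and 461 CPM in progenitors and at 80.9 and 389 CPM in hormone-sensing cells at 8 weeks, and at 182 and 211 CPM and 143 and 136 CPM at 9 weeks. The fibroblast markers stood at 23.8 and 77.7 CPM and at 45.1 and 99.2 CPM at 8 weeks, and at 4.44 and 4.64 CPM and 19.8 and 23.8 CPM at 9 weeks. Their part in the p63 target values was not tested.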

How the data were processed

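Single-cell RNA was captured in droplets from mouse mammary gland and sequenced as 4 libraries. The deposited matrix holds UMI counts per gene and cell that the authors made with Cell Ranger 2.1.0 on mm10, per the submitters' processing notes. The sources used here do not say whether depth was equalised between libraries. All 36884 barcodes, in 80853204 to 122122443 UMIs per library, were assigned to a library by their barcode suffix.

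Barcodes with at least 500 genes and at most 10% mitochondrial UMIs were kept (36470). Doublets were scored in each library from simulated mixtures and nearest neighbours (scikit-learn 1.9.0). The highest-scoring cells, at an assumed rate of 8%, were called and removed, 2865 over all libraries (7.65% to 8.01% of each). A cell's gate score was the mean over its markers of log2(UMIs per 10000 + 1). Limits were 1 (basal), 1.5 (luminal progenitor), 0.75 (hormone-sensing), 1.5 (fibroblast) and 0.5 (endothelial). Counts were summed per library and gate. Genotype and its interaction with the gate were tested with edgeR 4.0.16 (quasi-likelihood, TMM, filterByExpr) in R 4.3.3 with Benjamini-Hochberg adjustment at 0.05, with DESeq2 1.42.0 as an alternative. CPM are UMIs of a sum scaled to an equal total, and log2 ratios use a pseudocount of 1 CPM unless said otherwise. Depth-matched shares are the expected share at 2000 UMIs per cell (scipy 1.17.1). Intervals are Wilson 95% intervals (statsmodels, Python 3.11.15), a count of 0 is taken to allow 3 counts, and both cover counting error only. The edgeR test of genotype within a gate was tried on simulated counts, and the interaction and DESeq2 fits were not.

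The factors and gene lists were chosen with earlier results of these data known. The text names all 10 factors, the 3 genes most like each, and, of the 3 genes of each list with the smallest p, those under an unadjusted 0.05. Of 16 genes that differed in hormone-sensing cells with Elf5, the text names 4 (Crym, Upk3a, Tinagl1 and Tmsb4x), picked after their values were seen.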

Additional observations from a re-analysis of the deposited data

Results flagged for a closer look

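Cells that met the limit of more than 1 gate (70, 105, 21 and 71 cells per library, in the order used above) or of none (63, 185, 32 and 14 cells) entered no comparison. In the first set, 4 of 10 factors were higher in each Zeb1 MSKO library than in either control and 1 (Sox10) lower, against 20.3% and 14.0% of 11117 genes with at least 10 UMIs. In the second set 2 were higher (Tfap2c, and Sox10 on fewer than 10 UMIs in a library) and 2 lower (Ehf and Tbx3), against 18.5% and 12.6% of 10705 genes. In cells of more than 1 gate, the lower of the 2 Zeb1 MSKO libraries held 20.6 CPM of Foxa1, 195.7 CPM of Gata3, 199.1 CPM of Sox9 and 42.3 CPM of Tbx3. The higher control held 4.64 CPM of Foxa1, 107.4 CPM of Gata3, 182.5 CPM of Sox9 and 41.8 CPM of Tbx3. In cells of no gate, the lower Zeb1 MSKO library held 52.8 CPM of Tfap2c against 42.3 CPM in the higher control. These are values from 14 to 185 cells per library, with no test.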

How the results depend on the processing

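Of 570 recomputed fold changes of the factors, 526 kept their direction and their side of the threshold, 38 changed sign and 6 passed the threshold, the last all in tests between gates. The number of factors that did not overlap between gates stayed at 8, 8 and 6 with stricter gates and at 8, 9 and 6 with doublets kept, and ranged from 8 to 10, 8 to 10 and 6 to 8 with 1 library left out, which cannot lower it. Of 120 shares of cells 55 moved by more than 1 SD. The settings were thinning to 1000 UMIs, no thinning, stricter gates and doublets kept. Thinning to 1000 UMIs and no thinning change the depth and with it the share, and the 55 were not split by setting. With no filter on low counts the genes called in edgeR rose from 0 to 46, 82 and 2 in the basal, progenitor and hormone-sensing gates, and to 6, 129 and 45 for the genotype effect between basal and progenitor, basal and hormone-sensing, and progenitor and hormone-sensing gates. DESeq2 called 2, 7 and 33, then 4, 14 and 30. For basal against hormone-sensing cells, keeping doublets called 1 gene and stricter gates 1. RLE size factors called 0 in each. Between the basal and progenitor gates, the difference of the genotype effect on Foxa1 changed sign to 0.00032 with no filter and 0.17 with stricter gates. The cause of these changes was not tested.

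The replicate number marks the age (8 or 9 weeks). With it as a replicate block, edgeR called 18, 0 and 2 genes in the basal, progenitor and hormone-sensing gates, and Runx1 in the basal gate moved from 0.15 to -0.019. With 2 pairs only, libraries of 1 age deviated together (r = 0.357, 0.281 and 0.242 over genes), while the genotype ratios of the 2 ages were correlated at -0.315, -0.178 and -0.0193.

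Leaving out 1 library left a genotype with 1 library, assumed to vary like the others. Genes called then ranged from 0 to 13 (basal), 0 to 8 (progenitor) and 0 to 1 (hormone-sensing). Between gates they ranged from 0 to 57 (basal and progenitor), 20 to 447 (basal and hormone-sensing; 300 without the Zeb1 MSKO library and 20 without the control at 8 weeks, 447 and 31 at 9 weeks) and 0 to 73 (progenitor and hormone-sensing), in fits with 1 residual degree of freedom. Log2 fold changes of factors that changed sign ranged in the basal gate from -0.34 to 0.35 for Gata3, -0.41 to 0.65 for Trp63, -0.50 to 0.65 for Sox9, -0.14 to 0.49 for Sox10, -0.10 to 0.51 for Tfap2c, -0.38 to 0.72 for Tbx3 and -0.74 to 0.69 for Runx1. In the progenitor gate they ranged from -0.22 to 0.22 for Elf5, -0.38 to 0.28 for Gata3, -0.35 to 0.37 for Sox9, -0.093 to 1.24 for Tbx3, -0.25 to 0.84 for Runx1 and -0.37 to 0.20 for Tfap2c, and in the hormone-sensing gate from -0.48 to 0.38 for Tbx3, -0.071 to 2.70 for Trp63 and -0.17 to 0.36 for Tfap2c. Differences between gates ranged for basal minus progenitor from -0.19 to 0.33 for Sox9 and -0.026 to 0.60 for Tfap2c. For basal minus hormone-sensing they ranged from -0.036 to 0.40 for Foxa1, -2.51 to 0.19 for Trp63, -0.066 to 1.15 for Sox9, -0.47 to 0.97 for Tbx3 and -0.016 to 0.93 for Runx1, and for progenitor minus hormone-sensing from -0.0496 to 0.48 for Foxa1, -2.00 to 1.28 for Trp63, -0.014 to 0.93 for Sox9, -0.12 to 1.51 for Tbx3 and -0.47 to 0.11 for Tfap2c. Leaving out an age was not run, since it leaves no residual degrees of freedom. With 2 libraries per genotype, changes of the size of the spread between libraries could not be called, and levels under about 3 UMIs per sum were not detectable.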

Other observations

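The 200 cells of the hair follicle keratinocyte gate in the Zeb1 MSKO library at 8 weeks, which are no mammary lineage, also held part of the set. Gata3 stood there at 358 CPM, Trp63 at 102 CPM, Runx1 at 97.2 CPM and Tfap2c at 53.8 CPM. Sox9 was at 15.6 CPM and Tbx3 at 8.30 CPM, and Elf5 and Foxa1 were at 3.32 and 1.33 CPM. Only 2 such cells were found in the control library of that age and none at 9 weeks, so the genotypes cannot be compared in this gate.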
